A study of Homo sapiens with 4 samples.

Results

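The miR-99/miR-100 and miR-125 microRNAs were followed in PC-3 cells with and without apelin. Members were all listed mature miRNAs named miR-99a, miR-99b, miR-100, miR-125a or miR-125b. There were 4 of them among 1096 listed entries: miR-100-5p, miR-99a-5p, miR-125b-5p and miR-125a-5p. None was listed under a separate copy name. miR-99b and the 3p arms were not analysed here.

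PC-3 is an established human prostate cancer cell line, grown here in DMEM with fetal bovine serum and antibiotics. Small RNA was sequenced from 2 libraries of cells given apelin at 10 µg/mL for 24 h and from 2 libraries of cells with no treatment. Apelin is a peptide hormone and a ligand of APJ, a G protein-coupled receptor. Nothing in the labels says whether the libraries stem from separate cultures, so each p-value is relative to a spread between libraries that may be technical.

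A miRNA is cut from a hairpin precursor and guides Argonaute to messages that pair with its seed, bases 2 to 8. The miR-99/miR-100 family is known for repressing MTOR, and its seed is shared by miR-100, miR-99a and miR-99b. The miR-125 family is related to lin-4 of Caenorhabditis elegans and is known for repressing ERBB2 and LIN28. Both families are encoded beside let-7 genes, whose products repress RAS and HMGA2, in clusters that are kept in many animals. Within a cluster the hairpins can be cut from a common primary transcript, while the mature products can still differ in level through processing and turnover.

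The mature sequences of the members (RefSeq, GRCh38.p14) are shown because they define the 2 seed groups and the pairs that differ by few bases. Capitals mark the seed.
miR-100-5p: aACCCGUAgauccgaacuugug
miR-99a-5p: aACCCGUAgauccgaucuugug
miR-125b-5p: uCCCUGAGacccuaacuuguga
miR-125a-5p: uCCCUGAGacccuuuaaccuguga

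miR-100-5p and miR-99a-5p share the seed and all of their first 15 bases. They differ by a single substitution, A16U, with the base of miR-100-5p first and positions counted from 1 at the 5′ end. miR-125b-5p and miR-125a-5p share the seed and their first 13 bases, and their alignment has 21 identical bases, 1 mismatch and 2 gap positions. miR-125a-5p has 24 bases in RefSeq and a listed length of 23 nt in the deposited table, while the other members have 22 in both. Of 2370 mature names in the reference, 3 carry the first seed and 3 the second. The relatives outside the members are miR-99b-5p for the first and miR-4319 for the second, and neither was analysed here.

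The let-7 products of the same clusters and miR-10a-5p, a distant relative of miR-100, are shown for comparison, again with the seed in capitals.
let-7a-5p: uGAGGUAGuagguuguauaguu
let-7c-5p: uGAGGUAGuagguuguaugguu
let-7e-5p: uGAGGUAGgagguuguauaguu
miR-10a-5p: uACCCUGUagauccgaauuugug

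let-7c-5p differs from let-7a-5p by A19G and let-7e-5p differs from let-7a-5p by U9G, with the base of let-7a-5p first. miR-10a-5p has another seed than miR-100-5p but shares a run of 11 bases with it, guagauccgaa, which starts at base 7 of miR-10a-5p and at base 6 of miR-100-5p. The sources used here do not say how reads shared between such near-identical miRNAs were assigned, so the levels of the rarer partners are uncertain.

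The hairpins lie at 3 loci. All positions are GRCh38, from GENCODE 29. MIR100 (chr11:122152229-122152308), MIRLET7A2 (chr11:122146522-122146593) and MIR125B1 (chr11:122099757-122099844) lie on the minus strand in introns of the non-coding host MIR100HG. MIRLET7A2 is 5635 bp from MIR100 and MIR125B1 is 52384 bp from it. MIR99A (chr21:16539089-16539169), MIRLET7C (chr21:16539828-16539911) and MIR125B2 (chr21:16590237-16590325) lie on the plus strand in introns of the lincRNA MIR99AHG, with gaps from MIR99A of 658 bp to MIRLET7C and 51067 bp to MIR125B2. MIR99B (chr19:51692612-51692681), MIRLET7E (chr19:51692786-51692864) and MIR125A (chr19:51693254-51693339) lie on the plus strand in introns of SPACA6, and in an exon of SPACA6P-AS on the other strand. There the gap between MIR99B and MIR125A is 572 bp.

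The hairpins of the members show how the mature strand sits in its precursor (RefSeq, GRCh38.p14, transcribed strand). MIR125B2 is left out here and in the hairpin alignment below, since the reference used gave no hairpin sequence for it. Capitals mark the mature 5p miRNA.
MIR100: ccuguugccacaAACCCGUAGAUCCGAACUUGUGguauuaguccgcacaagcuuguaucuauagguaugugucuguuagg
MIR99A: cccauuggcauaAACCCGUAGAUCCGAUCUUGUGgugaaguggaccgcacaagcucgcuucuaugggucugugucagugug
MIR125B1: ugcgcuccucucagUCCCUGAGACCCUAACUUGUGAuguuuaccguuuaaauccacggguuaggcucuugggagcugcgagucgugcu
MIR125A: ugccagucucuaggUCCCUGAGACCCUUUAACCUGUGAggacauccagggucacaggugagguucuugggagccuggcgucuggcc

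The paired hairpins were also aligned over their whole length, mature strand included. MIR99A and MIR100 are identical at 76.8% of 82 aligned positions, and MIR125A and MIR125B1 at 67.0% of 91. The miR-125b-5p strand is the same in MIR125B1 on chromosome 11 and MIR125B2 on chromosome 21. Its count therefore cannot be split between the MIR100HG and MIR99AHG loci. let-7a-5p likewise comes from MIRLET7A2 in the MIR100HG cluster and from hairpins on chromosomes 9 and 22.

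The 2 apelin libraries held 5322429 and 5701358 counts, and the 2 control libraries 6014838 and 5662879. The TPM values used here are counts scaled to 1000000 per library, with no division by length. The miRNAs miR-221-3p and miR-222-3p, known to be abundant in PC-3, summed to 96270 and 92878 TPM with apelin and to 92493 and 92700 TPM in controls. Of 12 markers of blood, vessel, stroma, muscle, liver and neuron cells, 7 were listed and together made 46.3 to 50.5 TPM with apelin and 49.98 to 51.2 TPM in controls. Most of that was miR-486-5p, at 28.2 to 37.1 TPM, while miR-143-3p of the stroma and miR-223-3p of myeloid cells were at 0 in 2 libraries each.

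miR-100-5p, miR-125b-5p and miR-125a-5p were among the more abundant miRNAs of these cells, and miR-99a-5p was not. Together the 4 members held 16.6% and 14.6% of the counts in apelin libraries 1 and 2, against 17.98% and 17.5% in control libraries 1 and 2. Ordered from high to low, the members were miR-100-5p, miR-125b-5p, miR-125a-5p and miR-99a-5p in each of the 4 libraries. The ranges of neighbours in that order did not overlap, and all 4 members had the minimum mean of 10 TPM for testing.

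miR-100-5p, from the MIR100HG cluster, had 83399 and 86007 TPM with apelin, against 95571 and 91678 TPM in controls. It ranked second in both apelin libraries and in control 2, behind miR-21-5p, and first in control 1. In TPM it was lower in both apelin libraries than in either control library, as were 17.5% of tested entries. After TMM scaling, described below, its groups overlapped. TPM is a share of each library's counts, and in bulk RNA fewer cells with a miRNA and less of it per cell cannot be told apart. Its level varied 1.15-fold from the lowest library to the highest.

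miR-125b-5p, which the MIR100HG and MIR99AHG clusters both encode, had 50475 and 38186 TPM with apelin, against 48407 and 51461 TPM in controls. The groups overlapped, since apelin 1 lay between the controls. The low value was that of apelin 2. Its level was 1.65 to 2.25 times lower than that of miR-100-5p in the same library.

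miR-125a-5p, from the SPACA6 cluster, had 31639 and 21323 TPM with apelin, against 35603 and 31645 TPM in controls. The groups did not overlap, but the gap between apelin 1 and control 2 was only 6.64 TPM, within the counting error of these libraries (exact Poisson 95% intervals of 31488 to 31790 and 31499 to 31792 TPM). miR-125a-5p varied the most of the members, 1.67-fold over the 4 libraries, and ranked 9th and 18th with apelin and 7th and 9th in controls.

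miR-99a-5p, from the MIR99AHG cluster, had 203 and 201 TPM with apelin, against 198 and 194 TPM in controls. These rest on 1079 and 1144 counts with apelin and 1190 and 1099 counts in controls. The apelin libraries lay above the controls by 2.81 TPM, less than the counting error of a single library (191 to 215 TPM in apelin 1). It stood at 0.243% and 0.233% of miR-100-5p with apelin, against 0.207% and 0.212% in controls. The share of its reads that are miR-100-5p reads with a changed base was not tested.

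**Figure D1:**
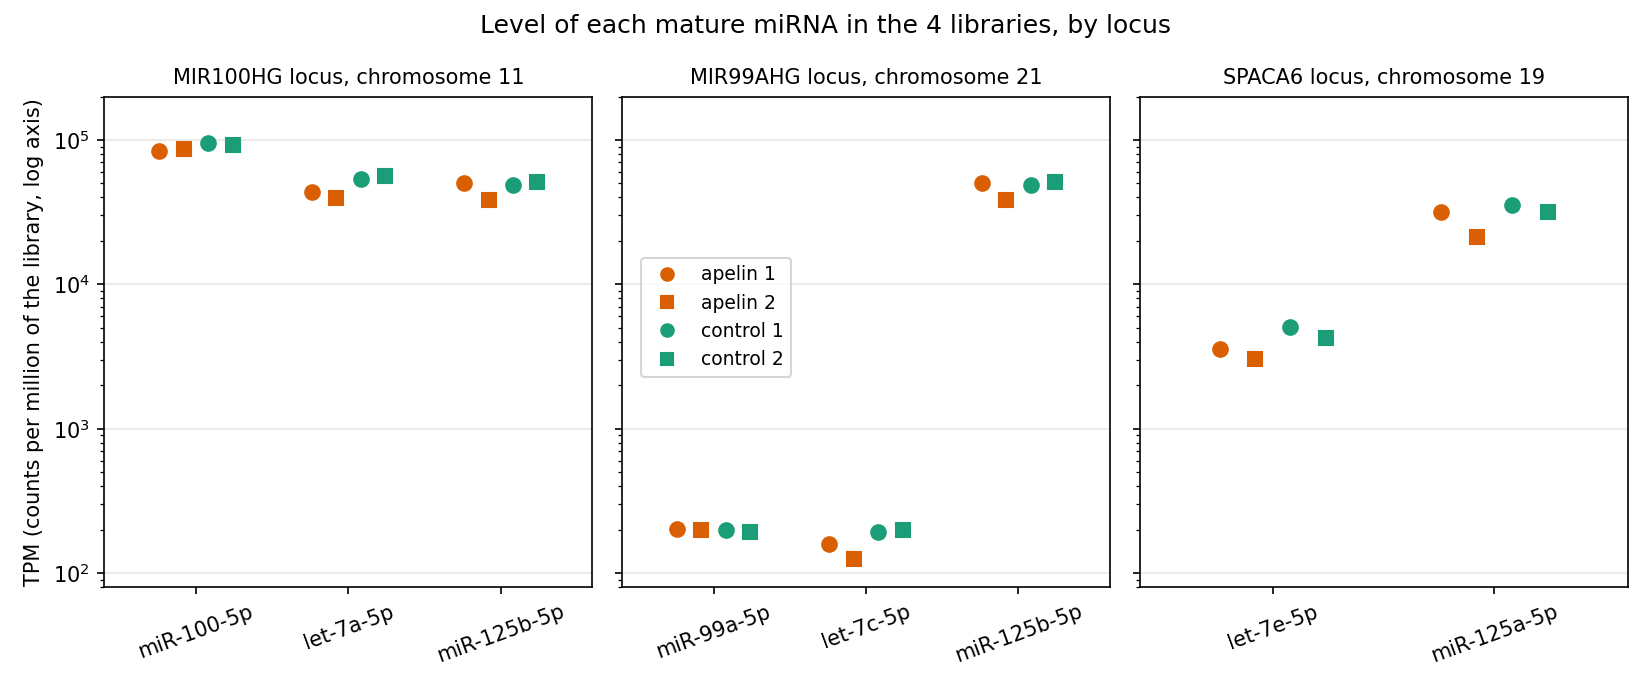
TPM (log axis) of the miR-99/miR-100, miR-125 and let-7 products of the 3 loci, with 1 point for each library (apelin left of control) and miR-125b-5p drawn at both loci that encode it. miR-100-5p lies between 83399 and 95571 TPM and miR-99a-5p between 194 and 203 TPM, while miR-125b-5p and miR-125a-5p are lowest in apelin 2.

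By locus, the MIR100HG products stood high and the products particular to MIR99AHG stood low. let-7a-5p had 43825 and 39354 TPM with apelin, against 53985 and 56722 TPM in controls, and its range overlapped that of miR-125b-5p. let-7c-5p had 160.1 and 124.7 TPM with apelin, against 193.9 and 199.7 TPM in controls, close to miR-99a-5p of the same cluster. It stood at 0.365% and 0.317% of let-7a-5p with apelin, against 0.359% and 0.352% in controls. The share of let-7c-5p reads that are let-7a-5p reads with a changed base was not tested. let-7e-5p had 3567 and 3025 TPM with apelin, against 5104 and 4233 TPM in controls. miR-125a-5p of the same cluster exceeded it 8.87-fold and 7.05-fold with apelin, and 6.98-fold and 7.48-fold in controls. Neighbours at 1 locus thus differed several-fold in level at SPACA6. At MIR100HG, miR-100-5p stood at 1.62 to 2.19 times let-7a-5p, to which other loci also contribute.

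No member differed between apelin and control cells in edgeR's quasi-likelihood test, and 0 of 4 were called against 0% of the 263 tested entries. At an unadjusted p under 0.05 edgeR had 15 of 263 entries (5.7%) and 0 of the 4 members. DESeq2 called 53 of 263 entries (20.2%) and 0 members. The median log2 fold change was -0.14 over the members and -0.018 over all tested entries.

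Apelin over control, miR-100-5p differed by -0.12 on the log2 scale (SE 0.087, 95% interval -0.40 to 0.16, adjusted p = 0.650 in edgeR). Group means were 84703 ± 1844 TPM with apelin and 93625 ± 2752 TPM in controls (SD, n = 2 each). Without apelin 2 the log2 fold change was -0.25, without control 2 it was -0.20, and without apelin 1 or control 1 it was -0.075 and -0.083.

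For miR-125b-5p the log2 fold change was -0.16 (SE 0.14, 95% interval -0.60 to 0.29, adjusted p = 0.688 in edgeR). Its mean was 44330 ± 8690 TPM with apelin and 49935 ± 2160 TPM in controls (SD, n = 2 each), so the difference of the means was smaller than the SD with apelin. Without apelin 2 the log2 fold change was -0.064, and without apelin 1 it was -0.34.

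miR-125a-5p had the largest log2 fold change in size of the 4, -0.34 (SE 0.23, 95% interval -1.08 to 0.41, adjusted p = 0.650 in edgeR). It averaged 26481 ± 7294 TPM with apelin and 33624 ± 2798 TPM in controls (SD, n = 2 each). The log2 fold change was -0.17 without apelin 2 and -0.61 without apelin 1. The interval of the fold, 0.474 to 1.33, leaves room for both a decrease and an increase.

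For miR-99a-5p the log2 fold change was 0.061 (SE 0.13, 95% interval -0.35 to 0.47, adjusted p = 0.873 in edgeR). It averaged 202 ± 1.47 TPM with apelin and 196 ± 2.67 TPM in controls (SD, n = 2 each). Without apelin 2 the value was -0.032, and without control 2 it was 0.00023.

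**Figure D2:**
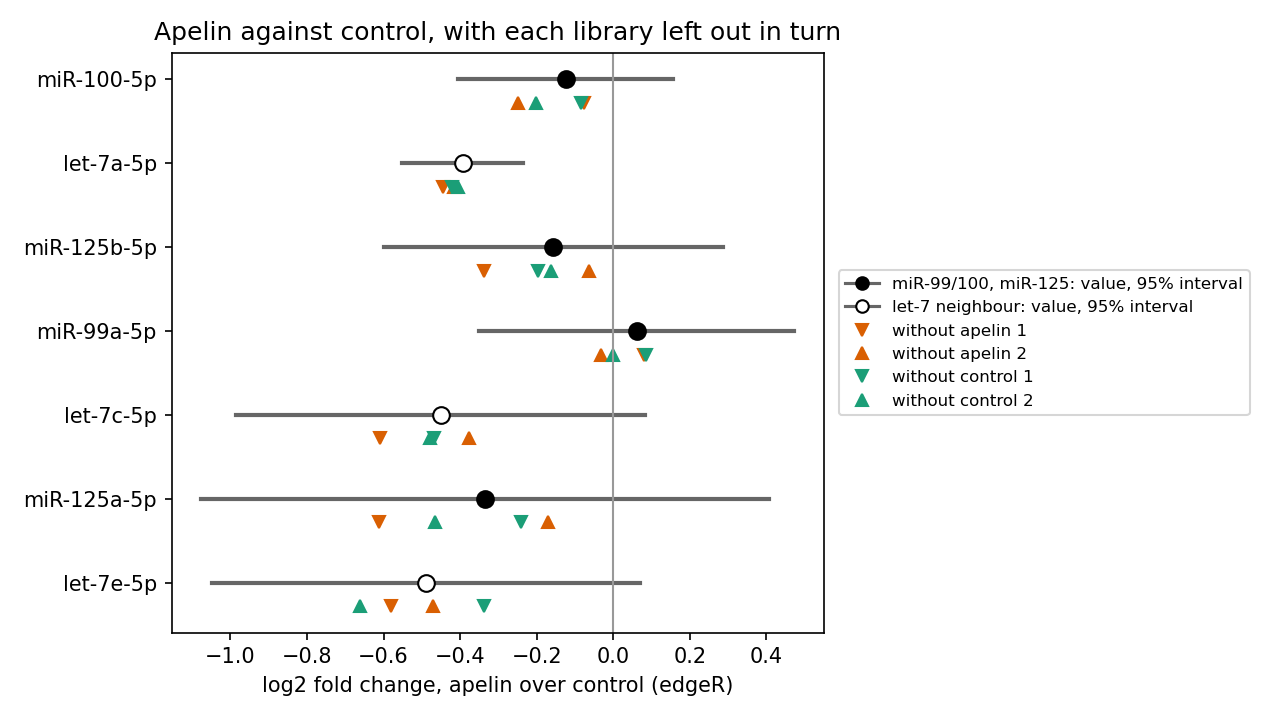
Log2 fold change of apelin over control from edgeR for each member (black) and let-7 neighbour (white), with 95% intervals, and the value with each library left out (triangles). The intervals of the 4 members all include 0, and the points without apelin 1 and without apelin 2 lie farthest apart for miR-125a-5p, at -0.61 and -0.17.

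Whether a member's groups overlapped depended on the scale. In TPM, miR-100-5p and miR-125a-5p were lower with apelin without overlap, as were 17.5% of tested entries, and miR-99a-5p was higher without overlap, as were 20.9%. After TMM scaling, which corrects each library's total for the entries that dominate it, all 3 overlapped. miR-100-5p then had 81494 and 89256 CPM with apelin, against 97536 and 88584 CPM in controls. miR-125b-5p, which overlapped in TPM, was lower without overlap after TMM, as were 16.3% of entries. It had 49322 and 39628 CPM with apelin, against 49403 and 49725 CPM in controls, a gap smaller than the counting error of a library.

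The relation to the let-7 neighbours was compared within libraries, where scaling cancels. miR-100-5p stood at 1.90 and 2.19 times let-7a-5p with apelin, against 1.77 and 1.62 times in controls, a log2 difference of 0.27. miR-99a-5p stood at 1.27 and 1.61 times let-7c-5p with apelin, against 1.02 and 0.972 times in controls, a log2 difference of 0.52. Without apelin 2 these differences were 0.17 and 0.35, and without apelin 1 they were 0.37 and 0.69. Both ratios were higher in the 2 apelin libraries than in the 2 controls, and each gave an exact permutation p = 0.333 (two-sided), the smallest that 2 against 2 libraries allow. Adjusted over the 7 ratios compared, all exact permutation p were 0.778 or above.

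The let-7 neighbours themselves were lower with apelin in these libraries. On the log2 scale let-7a-5p differed by -0.39 (SE 0.049), let-7c-5p by -0.45 (SE 0.17) and let-7e-5p by -0.49 (SE 0.17), with adjusted p = 0.235, 0.627 and 0.627 in edgeR. Each was lower in either apelin library than in either control, in TPM and after TMM scaling. Of all tested entries, 17.5% were lower without overlap in TPM and 16.3% after TMM scaling. edgeR called 0 of 3, while DESeq2 called all 3, with adjusted p = 2.67e-09 for let-7a-5p, 0.0121 for let-7c-5p and 0.0107 for let-7e-5p. DESeq2 called 20.2% of the 263 tested entries, and 12.9% were called as lower with apelin. miR-125a-5p over let-7e-5p overlapped between groups, with a log2 difference of 0.13.

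The miR-100-5p to miR-99a-5p ratio was 411 and 429 with apelin, against 483 and 472 in controls, a log2 difference of -0.19 (exact permutation p = 0.333, two-sided). The groups did not overlap in this ratio, as in miR-100-5p over let-7a-5p and miR-99a-5p over let-7c-5p. It shares miR-100-5p with the first of those and miR-99a-5p with the second, so they are not separate results. Of single tested entries, 38.4% did not overlap in TPM in either direction. The exact permutation p of 0.333 is the smallest that 2 against 2 libraries allow. The miR-100-5p to miR-99a-5p ratio rests on 1079 to 1190 counts of miR-99a-5p. The miR-100-5p to miR-125b-5p ratio was 1.65 and 2.25 with apelin, against 1.97 and 1.78 in controls. Both apelin values lay outside the range of the controls, 1 below and 1 above, so the groups overlapped (log2 difference 0.041, exact permutation p = 1, two-sided). miR-99a-5p over miR-125b-5p overlapped too, with a log2 difference of 0.23 that rested on apelin 2. It was 0.033 without that library.

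miR-125b-5p over miR-125a-5p, the seed partners from different loci, was 1.60 and 1.79 with apelin, against 1.36 and 1.63 in controls. The log2 difference was 0.18 and the groups overlapped. It was 0.056 without control 1 and 0.31 without control 2.

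**Figure D3:**
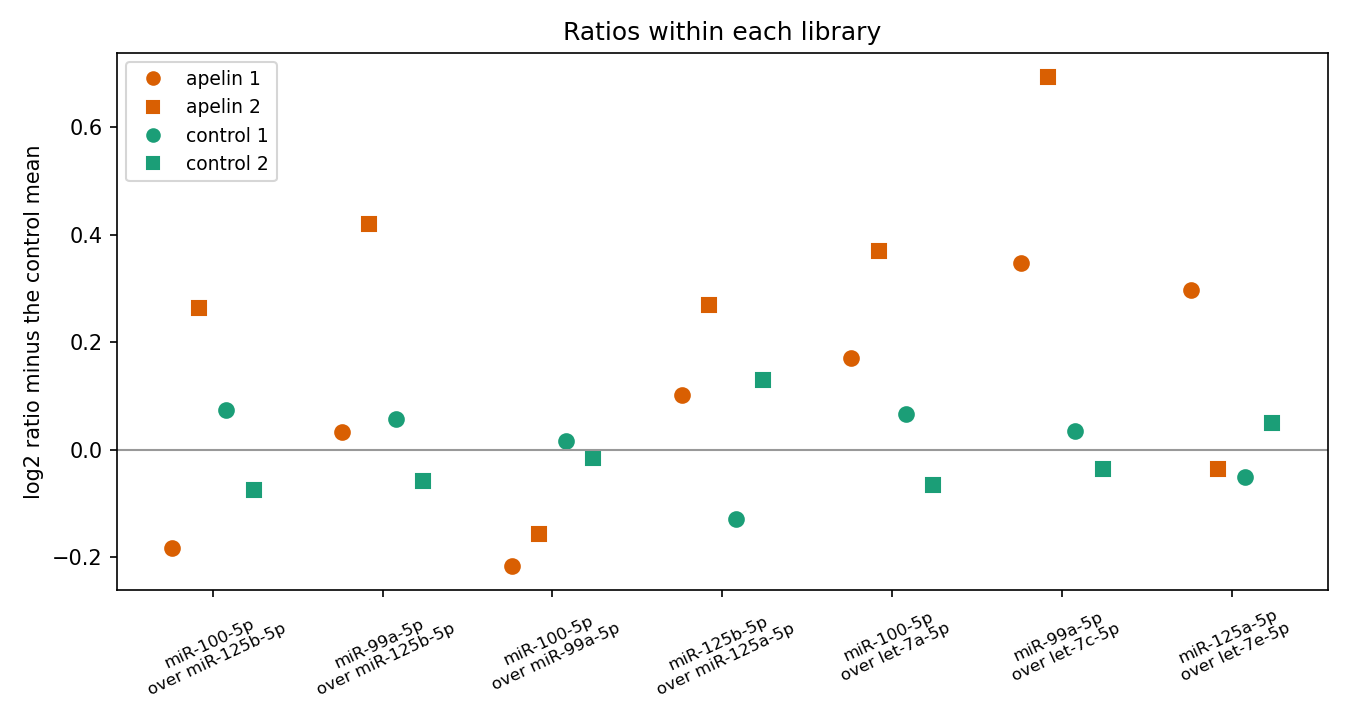
Log2 ratio of 2 mature miRNAs within each library, less the mean of the 2 controls (y axis), for 7 pairs (x axis), with 1 point for each library and apelin left of control. Both apelin points lie above both controls for miR-100-5p over let-7a-5p and miR-99a-5p over let-7c-5p, and below them for miR-100-5p over miR-99a-5p. Of single tested entries, 38.4% separate the groups in TPM in either direction.

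Summed by seed, miR-99/miR-100 made 8.36% and 8.62% of counts with apelin, against 9.58% and 9.19% in controls, and nearly all of it was miR-100-5p. miR-125 made 8.21% and 5.95% with apelin, against 8.40% and 8.31% in controls. The differences were -0.89 and -1.27 percentage points (exact permutation p = 0.333 each, two-sided, the smallest possible). The totals include miR-21-5p, which held 11.4% and 16.8% of counts with apelin and 9.14% and 10.3% in controls. Its part in the differences was not tested. Over counts other than miR-21-5p, chosen after seeing the data, the groups overlapped for both seeds. There miR-125 made 9.27% and 7.15% with apelin, against 9.25% and 9.27% in controls. Its overlap rested on apelin 1, which was close to both controls, while apelin 2 was lower. miR-99/miR-100 made 9.43% and 10.4% with apelin, against 10.5% and 10.2% in controls. The 4 members together did not overlap there, with 18.7% and 17.5% with apelin, against 19.8% and 19.5% in controls (difference -1.54 percentage points, exact permutation p = 0.333, two-sided).

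The 2 apelin libraries differed from each other for the miR-125 pair more than for the miR-99/miR-100 pair. In log2 TPM, apelin 2 minus apelin 1 was -0.57 for miR-125a-5p and -0.40 for miR-125b-5p. For miR-100-5p and miR-99a-5p the same difference was 0.044 and -0.015. Between the controls all 4 members stayed within a log2 difference of 0.17 in size. Over 178 catalogue miRNAs above 0 in all libraries and with a RefSeq sequence, 19 had a difference between the apelin libraries as low as that of miR-125a-5p or lower, itself included. For miR-125b-5p that number was 44. The median size of the difference over the 178 miRNAs was 0.31.

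That difference between the apelin libraries moved with the GC content of the mature miRNA (Spearman rho -0.68 over the 178 miRNAs, which share the same 2 libraries). The median difference was 0.21 over the 63 miRNAs of lowest GC, -0.081 over the 65 of middle GC and -0.46 over the 50 of highest GC. Between the controls rho was -0.27, and for apelin minus control it was -0.29. All 4 members have a GC content of 50%, so the miR-125 and miR-99/miR-100 pairs do not differ in it. The part of GC content in the fold changes above was not tested.

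**Figure D4:**
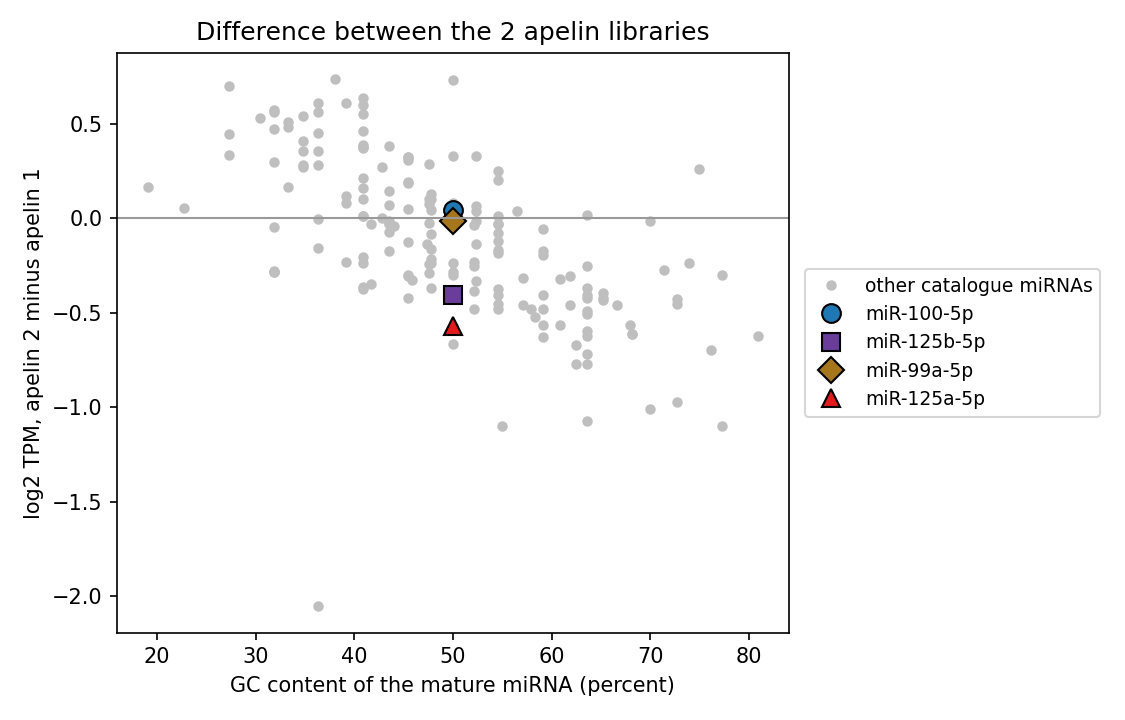
Difference in log2 TPM between apelin 2 and apelin 1 (y axis) against GC content of the mature miRNA in percent (x axis), with 1 point for each of 178 catalogue miRNAs. The members all lie at 50% GC, miR-100-5p at 0.044 and miR-99a-5p at -0.015, miR-125b-5p at -0.40 and miR-125a-5p at -0.57.

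Other miRNAs with the most similar profile were found by the root-mean-square distance of log2 TPM, centred over the 4 libraries, among 203 catalogue miRNAs. They were miR-25-3p, miR-421 and miR-200b-3p for miR-100-5p (distances 0.039, 0.056 and 0.058). For miR-125b-5p they were miR-589-5p, miR-935 and miR-671-3p (0.036, 0.040 and 0.040). For miR-125a-5p they were miR-197-3p, miR-3940-3p and miR-328-3p (0.044, 0.055 and 0.063), and for miR-99a-5p miR-186-5p, miR-221-3p and miR-183-5p (0.0048, 0.024 and 0.028). The nearest member to miR-100-5p was miR-99a-5p, at 0.096, and the nearest to miR-125b-5p was miR-125a-5p, at 0.14. miR-100-5p and miR-125b-5p, which share the MIR100HG locus in part, were 0.17 apart. The median distance to the 203 candidates was 0.20 for miR-100-5p, 0.21 for miR-125b-5p, 0.29 for miR-125a-5p and 0.19 for miR-99a-5p. The distances of 0.096, 0.14 and 0.17 lay below the medians of both partners, that of 0.17 not far below. miR-125a-5p was 0.25 from miR-100-5p and 0.29 from miR-99a-5p, above the medians of those members.

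The distant relative miR-10a-5p had 4332 and 4253 TPM with apelin, against 5079 and 5289 TPM in controls (log2 fold change -0.25, SE 0.071, adjusted p = 0.627 in edgeR). DESeq2 called it (adjusted p = 0.000115), as it did 20.2% of tested entries. miR-10b-5p had 2061 and 1847 TPM with apelin, against 2184 and 2047 TPM in controls (log2 fold change -0.098, SE 0.11, adjusted p = 0.759 in edgeR). miR-10a-5p was below both controls in both apelin libraries on both scales, while miR-10b-5p overlapped. Lower without overlap were 17.5% of tested entries in TPM and 16.3% after TMM scaling.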

How the data were processed

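The authors deposited 1 table that pairs a raw read count with a TPM value per miRNA and library. Trimmomatic 0.30 (for trimming) and DESeq2 are named in the submitters' processing notes. The sources used here name no aligner, miRNA catalogue or build. The deposited TPM equals the count scaled to 1000000 per library, within 0.005 in 3 libraries and 0.151 in apelin 2. The 1096 entries hold 516 catalogue and 580 predicted ones.

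The test was edgeR's quasi-likelihood test on counts with TMM scaling, over 263 entries with a mean of at least 10 TPM. Adjustment was Benjamini-Hochberg over all of them, with a threshold of 0.05. SE is |log2 fold change| divided by the root of the F statistic. Ratios and shares had exact permutation tests. A count of 0 allows up to 3 counts, 0.499 to 0.564 TPM, for counting error only, as PCR duplicates cannot be told from molecules here. The edgeR step was tested on simulated data.

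All 4 members and the let-7 neighbours are named by rule, with the 3 miRNAs of most similar profile for each. Members and lists were chosen with earlier results of these data known. Versions were R 4.3.3, edgeR 4.0.16, limma 3.58.1, DESeq2 1.42.0, Biopython 1.88, scipy 1.17.1, numpy 2.4.6, pandas 2.3.3, matplotlib 3.10.9 and Python 3.11.15. Besides, 17 other fits were run, 16 planned and 1 added after seeing the data. The planned 5p over 3p ratios and 3 of the 10 planned partner ratios need entries not analysed here.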

Additional observations from a re-analysis of the deposited data

How the results depend on the processing

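No member was called in any of the 17 other fits. Over them the log2 fold change ran from -0.25 to -0.075 for miR-100-5p, -0.34 to -0.064 for miR-125b-5p, -0.61 to -0.17 for miR-125a-5p and -0.032 to 0.085 for miR-99a-5p, which reversed only without apelin 2. The lowest adjusted p was 0.257 (miR-125a-5p, replicate block). With a replicate block edgeR called 0 entries, and miR-125a-5p was -0.35, miR-125b-5p -0.16, miR-100-5p -0.12 and miR-99a-5p 0.062. Nothing in the labels pairs same-numbered libraries, and deviations of same-numbered libraries correlated at 0.312 over 207 miRNAs. The number of called entries, 0 in the main test, was 52 with no filter, 53 with DESeq2, 4 with limma on log2(TPM + 1) and 4 with a pseudocount of 10. It was 0 to 19 with a library left out. The cause was not tested. With a library left out, the log2 difference between groups ran from -0.18 to 0.26 for miR-100-5p over miR-125b-5p and from -0.035 to 0.30 for miR-125a-5p over let-7e-5p. The other 5 ratios kept their sign under all 7 alternatives, as did the 3 summed shares under their 8, though that of miR-125 ran from -2.41 to -0.14 percentage points with a library left out. Relative counting error was largest for miR-99a-5p and let-7c-5p among the members and let-7 neighbours, at 711 to 1190 counts a library. Their SE in edgeR, 0.13 and 0.17, was still below the 0.23 of miR-125a-5p.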
